A study of Mus musculus with 30 samples.

Results

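Satellite cells, the resident stem cells of skeletal muscle, are recognised and sorted by proteins on their surface, and transcripts of 10 such proteins were followed through injury and regeneration. The genes are Calcr, Cxcr4, Megf10, Sdc3, Sdc4, Vcam1, Ncam1, Cdh15, Cd34 and Chodl. They were taken by name, as known surface or quiescence markers, by a rule that uses no measured value, and are 10 of the 55450 gene rows in the tables of injured muscle and of the 55154 identifiers that all tables share. Each had a row in every table and passed the filter on low counts in every fit.

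The cells came from hind limb muscle of C57BL/6 mice and were sequenced in 30 libraries, 15 groups of 2. Injection of barium chloride, a salt that kills fibres and spares satellite cells, made the injury, and paraformaldehyde was perfused through the animals to fix transcripts before isolation. Beside uninjured cells there were 8 groups from the first hours (0.5, 1, 2, 4, 8, 16, 32 and 60 h), 3 groups from 7, 14 and 28 days, and 3 groups labelled old. Of the old groups, oQSC was fixed in place without injury and oASC was taken 2.5 days after injury. For oFISC the treatment label names the injury but the time label calls the cells freshly isolated, which leaves their state uncertain. The strain and the perfusion are given alike for all groups, and no allele or transgene is named. Whether the oFISC cells, called freshly isolated, were fixed before isolation is unclear, so oFISC against oQSC may also compare preparations. The labels give no ages, do not say that the libraries of a group came from separate animals, and do not name the antigens of the sort, so errors and p-values measure the spread between these libraries, which may be technical, and a sort on a member's protein is possible.

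In resting muscle a satellite cell lies between the fibre and its basal lamina, and its surface proteins hold it there and receive the signals that keep it quiescent or wake it. After damage the cell leaves quiescence, divides, and its progeny either fuse into new fibres or return to the niche. Receptors, heparan sulfate proteoglycans, adhesion proteins of the immunoglobulin and cadherin families, and glycoproteins such as sialomucins all take part, and several of them are used to sort the cells.

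The sequences before the transcription start of Chodl, Calcr and Sdc4 are shown because the group means of these genes spanned the widest ranges of the 10, 187-fold for Chodl, 59.4-fold for Calcr and 32.6-fold for Sdc4 between the highest and the lowest group. They are the 250 bases upstream of the start in RefSeq on build GRCm38.p6, on the gene's strand, at chr16:78930698-78930947 (+) for Chodl, chr6:3763624-3763873 (-) for the first of both Calcr starts and chr2:164443189-164443438 (-) for Sdc4. Capitals mark matches to the letters that were searched.
Chodl: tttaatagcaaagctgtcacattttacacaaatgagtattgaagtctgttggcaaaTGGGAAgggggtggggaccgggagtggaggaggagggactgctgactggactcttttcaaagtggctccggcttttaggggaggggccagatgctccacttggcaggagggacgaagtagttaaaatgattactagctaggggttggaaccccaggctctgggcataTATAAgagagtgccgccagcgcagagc
Calcr: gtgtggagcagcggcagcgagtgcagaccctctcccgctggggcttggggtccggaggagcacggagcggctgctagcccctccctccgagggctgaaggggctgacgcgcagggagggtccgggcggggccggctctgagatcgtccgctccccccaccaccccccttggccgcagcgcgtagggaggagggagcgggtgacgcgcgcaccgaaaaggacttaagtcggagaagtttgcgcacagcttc
Sdc4: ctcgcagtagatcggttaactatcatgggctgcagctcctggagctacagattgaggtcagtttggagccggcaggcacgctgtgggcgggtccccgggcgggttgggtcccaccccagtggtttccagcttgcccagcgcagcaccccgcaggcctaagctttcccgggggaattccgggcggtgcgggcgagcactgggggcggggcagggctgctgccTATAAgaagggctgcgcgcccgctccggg

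RefSeq promoters, windows of 300 bases from 250 before to 50 after the start, were matched for 7 of the 10 genes (8 windows), all but Vcam1, Megf10 and Ncam1. Both strands were searched for TGGGAA (the letters of an Rbpj site, the factor of Notch signalling), CAGCTG (a Myod1 E-box), TGACTCA (AP-1) and TGACGTCA (Creb). The Chodl window held TGGGAA at position -194 from the start, a word found in 25.6% of the 32851 windows of this length. No other of these words was found in the 8 windows. They occur in 16.3% (CAGCTG), 5.2% (TGACTCA) and 1.79% (TGACGTCA) of all windows. The word TATAA, a core promoter element searched for after the sequences were seen, stood at -27 in Chodl, -29 in Sdc4 and -31 (reverse strand) and -30 in Cxcr4, and in 24.9% of all windows. A match is a match of letters, not a bound site.

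Library totals ranged from 9182407 to 57441790 counts. Levels are CPM, counts relative to the library total after scaling all 30 libraries together by TMM (trimmed mean of M values), and every level below is given for library 1 and then library 2. The libraries of 0.5, 1, 2 and 4 h agreed poorly inside their groups, with Pearson's r of 0.674, 0.804, 0.735 and 0.737 of log2 CPM over the 2000 genes that varied most (genes are not independent points), and each of the 8 was closest to a library of another time. The cause was not tested, and whether the time labels of these 8 libraries are right is not known. Values at 0.5 to 4 h are given for the libraries as labelled. Also closest to another time were library 1 of 16 h and library 1 of 14 days. Agreement inside the group was lowest of the 15 groups at 14 days (r of 0.604), and it was 0.702 at 28 days and 0.809 at 7 days. The satellite cell gene Pax7 was detected in every library, at 1746 and 1555 CPM in uninjured cells, 156 and 148 CPM at 60 h and 10.5 and 10.2 CPM in oASC. Tables cannot be told apart from the groups they hold, so comparisons of the old or the regenerating cells with uninjured or 60 h cells also compare tables.

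Per kilobase of exon, the uninjured cells held most Sdc4 (264 CPM per kilobase) and Chodl (167). Megf10 (64.9), Ncam1 (52.6), Calcr (41.8) and Cdh15 (41.4) followed, then Cd34 (23.1), Cxcr4 (15.1) and Vcam1 (14.9), with Sdc3 lowest (3.58). At 60 h the order had changed below the first place. Sdc4 was still first (603 CPM per kilobase), while Chodl had gone from the second place to 9.28. Calcr stood at 3.86, below Sdc3 at 6.41, and Cxcr4 was lowest at 1.62.

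**Figure D1:**
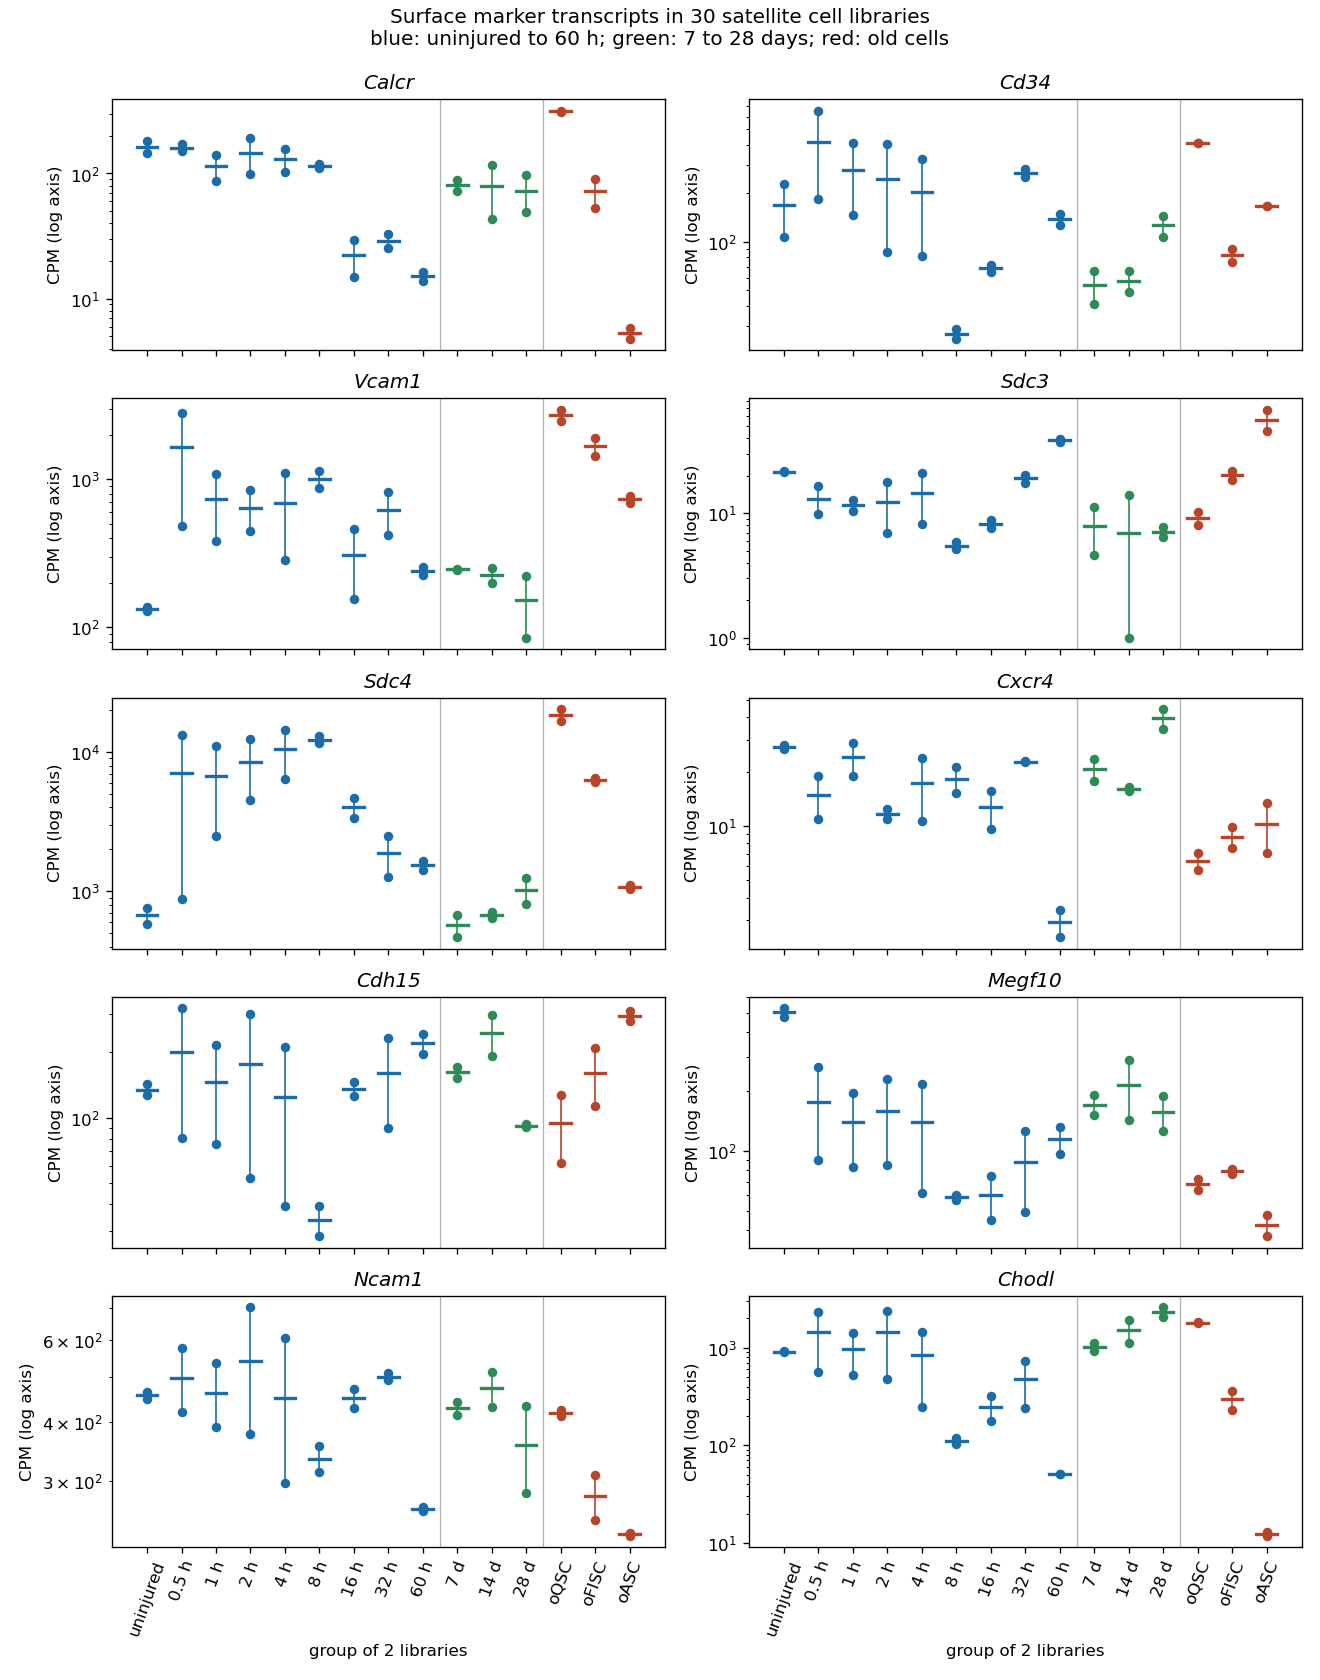
Each panel plots 1 gene, with the level of each library in CPM on a log axis against its group, in blue for uninjured to 60 h, green for 7 to 28 days and red for old cells. Bars are group means and vertical lines join the 2 libraries. Chodl and Calcr dip at 60 h and in oASC, Sdc4 peaks at 8 h and in oQSC, and Ncam1 stays within 229 to 702 CPM. The Sdc3 library with 0 counts at 14 days is drawn at 1 CPM.

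The time course asks when each surface gene changes as the cells are activated. Calls were made with edgeR's quasi-likelihood test at 0.05, after Benjamini-Hochberg adjustment over all genes tested. Against uninjured cells, the 0.5 h comparison called 1 of the 10 genes (and 10.3% of all genes tested), that of 1 h 0 (10.2%), that of 2 h 1 (9.31%) and that of 4 h 1 (11%). The 8 h comparison called 6 (30.1%), the 16 h one 2 (22.7%), the 32 h one 2 (20.5%) and the 60 h one 4 (28.3%). Up to 4 h and at 16 and 32 h the share of the 10 was thus near that of all genes. At 1 h, where edgeR called 0, 3 genes had an unadjusted p under 0.05 and DESeq2 called 3, beside 4752 of all 22479 genes tested. Over all 9 groups at once, 5 of the 10 changed (24.7% of all genes), namely Calcr (adjusted p = 0.000632), Cxcr4 (0.0115), Sdc3 (0.0166), Chodl (0.0275) and Megf10 (0.0468). With 1 library left out that count ran from 1 (without either 60 h library) to 7 (without either 0.5 h library), and was 2 without uninjured library 1 or either 8 h library and 3 without uninjured library 2. DESeq2 called 8. Of all genes called at 16 and 32 h, 62.5% and 68.7% were higher, and 51.9% and 57.8% with RLE size factors, another scaling. The median log2 fold change of the 10 was -1.3 at 8 h and -0.55 at 60 h, where that of all genes was 0 both times. In RNA of sorted cells, fewer cells that express a gene and less RNA per cell cannot be told apart.

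Among the receptors, Calcr fell from 16 h on. It encodes the calcitonin receptor, which signals through cyclic AMP and helps to hold satellite cells in quiescence. Uninjured libraries held 147 and 180.1 CPM, and libraries of 8 h still 109.7 and 118 CPM (-0.55 ± 0.40, adjusted p = 0.306; log2 fold change ± SE here and below). At 16 h they held 29.5 and 14.9 CPM, at 32 h 25.2 and 32.6 CPM and at 60 h 13.8 and 16.4 CPM, all under every library of 0 to 8 h. The changes were -2.87 ± 0.43 (adjusted p = 0.00158), -2.50 ± 0.43 (adjusted p = 0.00245) and -3.44 ± 0.44 (adjusted p = 0.000323), the last a 10.9-fold fall, and each was called whichever of the 4 libraries was left out. The step from 8 to 16 h itself was -2.32 ± 0.42 (adjusted p = 0.105) in the fit of all 18 libraries and -2.39 (adjusted p = 0.00774) when the 8 libraries of 0.5 to 4 h were left out of the fit.

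Calcr at 0.5 to 4 h lay between 87.2 and 192 CPM, around the uninjured level. None of these times was called for it. Over all 15 groups, the mean was highest in oQSC and lowest in oASC, both apart from all other libraries. Uninjured to 8 h cells overlapped one with the next, as did 7, 14 and 28 days with oFISC, and 32, 16 and 60 h.

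Cxcr4, the receptor of the chemokine Cxcl12, fell late. Its level was 26.7 and 27.9 CPM in uninjured cells, and in the 8, 16 and 32 h libraries 21.1 and 15.3, 15.6 and 9.66, and 22.5 and 22.8 CPM. At 60 h the libraries held 2.42 and 3.45 CPM, the lowest of all 30 libraries. That was -3.23 ± 0.48 (adjusted p = 0.00063) against uninjured cells, called also without any 1 library. Against 32 h the change was -2.95 ± 0.47 (adjusted p = 0.0079), in a step where 3.69% of all genes and 1 of the 10 were called. That call was lost without 60 h library 1 (adjusted p = 0.104) or library 2 (0.0695). Leukocytes also carry Cxcr4, and the summed level of 13 leukocyte markers was 9.07 to 10.7 CPM in uninjured cells, 134 to 547 CPM at 32 h and 60.3 to 229.9 CPM at 60 h. At 60 h 6 of the 12 markers tested had risen and 1 had fallen, beside 28.3% of all genes called. The pan-leukocyte gene Ptprc was at 0.138 ± 0.195 CPM in uninjured cells and 1.47 ± 0.270 CPM at 60 h (mean ± SD, 2 libraries), without a call. The part of such cells in the levels of Cxcr4 was not tested.

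Megf10, a receptor with EGF-like repeats that acts in satellite cell proliferation and in engulfment of cell debris, was highest in uninjured cells, at 476 and 526 CPM. No other library of the 30 exceeded 289 CPM. It was at 60.2 and 56.5 CPM at 8 h (-3.13 ± 0.75, adjusted p = 0.0113), 44.9 and 75 CPM at 16 h (-3.05 ± 0.75, adjusted p = 0.0137), 49.2 and 127 CPM at 32 h (-2.52 ± 0.73, adjusted p = 0.0295) and 96.4 and 133 CPM at 60 h (-2.14 ± 0.72, adjusted p = 0.0429). The groups did not overlap with uninjured cells at any of these times, but the calls depended on single libraries. With 1 library left out in turn, Megf10 was called in 2 of 4 fits at 8 h, 1 of 4 at 16 and at 32 h and 0 of 4 at 60 h. The adjusted p at 60 h was then 0.114 and 0.135 without uninjured libraries 1 and 2 and 0.215 and 0.144 without 60 h libraries 1 and 2. At 16 and 32 h the fits without uninjured libraries 1 and 2 gave 0.0562 and 0.0573, and 0.1 and 0.108. Without library 1 of 16 h it was 0.12 and without library 1 of 32 h 0.206.

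The heparan sulfate proteoglycans Sdc4 and Sdc3 went opposite ways at 8 h. Both are syndecans, transmembrane proteins whose sugar chains bind growth factors such as Hgf and Fgf2. Sdc4 was at 586 and 756 CPM in uninjured cells and 11574 and 13025 CPM at 8 h, an 18-fold rise (4.17 ± 1.08, adjusted p = 0.0154). Libraries of 16 h held 4705 and 3339 CPM, those of 32 h 2498 and 1257 CPM and those of 60 h 1424 and 1649 CPM, which passed no test in the fit of all 18 libraries (1.19 ± 0.97, adjusted p = 0.366 for 60 h). Every library from 0.5 to 60 h lay above the higher of the uninjured ones. Without the 0.5 to 4 h libraries in the fit, Sdc4 was also called at 16 h (2.52, adjusted p = 0.000575), 32 h (1.41, adjusted p = 0.00941) and 60 h (1.13, adjusted p = 0.0209).

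Sdc3 moved little in absolute terms. It was at 21.2 and 21.7 CPM in uninjured cells, 5.15 and 5.87 CPM at 8 h (-1.99 ± 0.49, adjusted p = 0.0121) and 8.81 and 7.63 CPM at 16 h. At 32 h it was back at 17.6 and 20.4 CPM, and at 60 h it stood at 37.5 and 39.2 CPM, above both uninjured libraries (0.83 ± 0.47, adjusted p = 0.198, not called). Without the 0.5 to 4 h libraries the value at 60 h was 0.77 (adjusted p = 0.0283). Uncharacterised genes overlap Sdc3 on the other strand, and the strand of counting is not given in the sources used here. The same holds for Cd34, Vcam1 and Ncam1, and Cdh15 shares its strand with an overlapping gene model.

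Of the adhesion proteins, Vcam1 rose. It is an immunoglobulin protein that binds integrin alpha 4 beta 1 and is widely used to sort satellite cells. It was at 137 and 128 CPM in uninjured cells and 878 and 1130.3 CPM at 8 h (2.89 ± 0.90, adjusted p = 0.0308), and the groups did not overlap. At 16, 32 and 60 h it was at 461 and 156, 821 and 421 and 226 and 255 CPM, with no call in the fit of all 18 libraries, and 2.15 (adjusted p = 0.00687) at 32 h without the 0.5 to 4 h libraries. Every library from 0.5 to 60 h lay above both uninjured ones.

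Cdh15 encodes M-cadherin, which joins satellite cells to the fibre. It was at 142 and 127 CPM in uninjured cells and 39.3 and 28.4 CPM at 8 h (-2.02 ± 0.91, adjusted p = 0.105), its lowest group, without passing the test; without the 0.5 to 4 h libraries in the fit the fall at 8 h was called at -2.02 (adjusted p = 0.00324). From 16 to 60 h its libraries ranged from 89.4 to 243 CPM and overlapped or exceeded uninjured cells. Ncam1, a homophilic adhesion protein of satellite cells and nerve, was the steadiest of the 10, with a 2.34-fold span of group means. It was at 448 and 464 CPM in uninjured cells, 313 and 356 CPM in the 8 h and 264 and 258 CPM in the 60 h libraries. The value at 60 h (-0.81 ± 0.37, adjusted p = 0.116) was called without the 0.5 to 4 h libraries (-0.87, adjusted p = 0.00667). The summed level of 12 muscle fibre markers was 90.4 to 168 CPM in uninjured cells, 54.5 to 117 CPM at 8 h (7 risen, 1 fallen) and 643 to 682 CPM at 60 h (5 risen, 0 fallen), where Eno3 alone made up 507 CPM and Myh2, Myh4 and Mb were at 0. Of all genes, 30.1% were called at 8 h and 28.3% at 60 h. The part of fibre RNA in the levels of Cdh15 and Ncam1 was not tested.

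The glycoproteins Cd34 and Chodl were low at 8 h. Cd34, a sialomucin found on quiescent satellite cells, endothelial cells and blood progenitors, was at 107 and 229 CPM in uninjured cells and 24.9 and 28.8 CPM at 8 h, a 6.38-fold fall (-2.67 ± 0.83, adjusted p = 0.0307). Libraries of 16 h held 72.1 and 64.7 CPM, those of 32 h 254 and 284 CPM and those of 60 h 128 and 148 CPM. At 32 h both libraries stood above both uninjured ones, without a call (0.68 ± 0.78, adjusted p = 0.558). The step from 16 to 32 h was 1.96 ± 0.81 (adjusted p = 0.493), and 1.96 (adjusted p = 0.0135) without the 0.5 to 4 h libraries.

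Chodl encodes chondrolectin, a membrane protein of the C-type lectin family. It was at 908 and 925 CPM in uninjured cells, 103 and 119 CPM at 8 h (-3.07 ± 0.96, adjusted p = 0.0311) and in the 16, 32 and 60 h libraries 177 and 321, 241 and 726, and 51.4 and 50.5 CPM. The last value was an 18.1-fold fall (-4.18 ± 1.01, adjusted p = 0.00929) and lay under every other library up to 60 h. Without 60 h library 1 or 2 its adjusted p was 0.0745 and 0.0777. The level thus fell, stood higher at 32 h and was lowest at 60 h, and the step from 32 to 60 h was -3.24 ± 0.97 (adjusted p = 0.0862), and -3.25 (adjusted p = 0.00505) without the 0.5 to 4 h libraries.

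The 8 h calls rested on having both libraries of each group. With any 1 of the 4 left out, most of them were lost, and the count over all genes fell as well. Whether the 10 lost more of their calls than all genes did was not tested. The direction of all 6 stayed. Their log2 fold changes ran from -3.092 to -2.001 for Cd34, 2.733 to 3.096 for Vcam1 and -2.054 to -1.865 for Sdc3. For Sdc4 they ran from 4.025 to 4.385, for Megf10 from -3.17 to -3.035 and for Chodl from -3.148 to -2.935. With the 0.5 to 4 h libraries left out of the fit instead, the 8, 16, 32 and 60 h comparisons called 7, 7, 4 and 7 of the 10, and 46.8%, 38.8%, 37% and 44.4% of all genes. For all 10 genes the 8 h libraries did not overlap with the uninjured ones, as was so for 75.5% of all genes. Between 8 and 16 h edgeR called 0 of the 10 (2 at an unadjusted p under 0.05, 1 by DESeq2) and 0.0089% of all genes. Between 16 and 32 h it also called 0 (2 and 0) and 0.796% of all genes. DESeq2 called 453 and 684 of the 22479 genes tested in these steps.

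Markers of other cell types that carry Cd34 or Vcam1 moved as well. The summed level of 13 endothelial markers was 40.7 to 83.8 CPM in uninjured cells and 151 to 228 CPM at 8 h, with 6 of 13 risen and 0 fallen, and 19.4 to 20.9 CPM at 60 h, with 1 risen and 2 fallen. For 11 markers of fibro-adipogenic cells and fibroblasts it was 847 to 904 CPM, 629.7 to 779.8 CPM (5 risen, 2 fallen) and 276 to 309.7 CPM (1 risen, 4 fallen). Their defining gene Pdgfra had 0 counts in both uninjured libraries and a mean of 1.08 CPM at 8 h, and endothelial Pecam1 went from 2.04 ± 2.11 to 13.3 ± 9.49 CPM (log2 fold change 2.63 ± 0.90). Beside these counts, 30.1% of all genes were called at 8 h and 28.3% at 60 h. The part of such cells in the changes of Cd34 and Vcam1 was not tested.

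**Figure D2:**
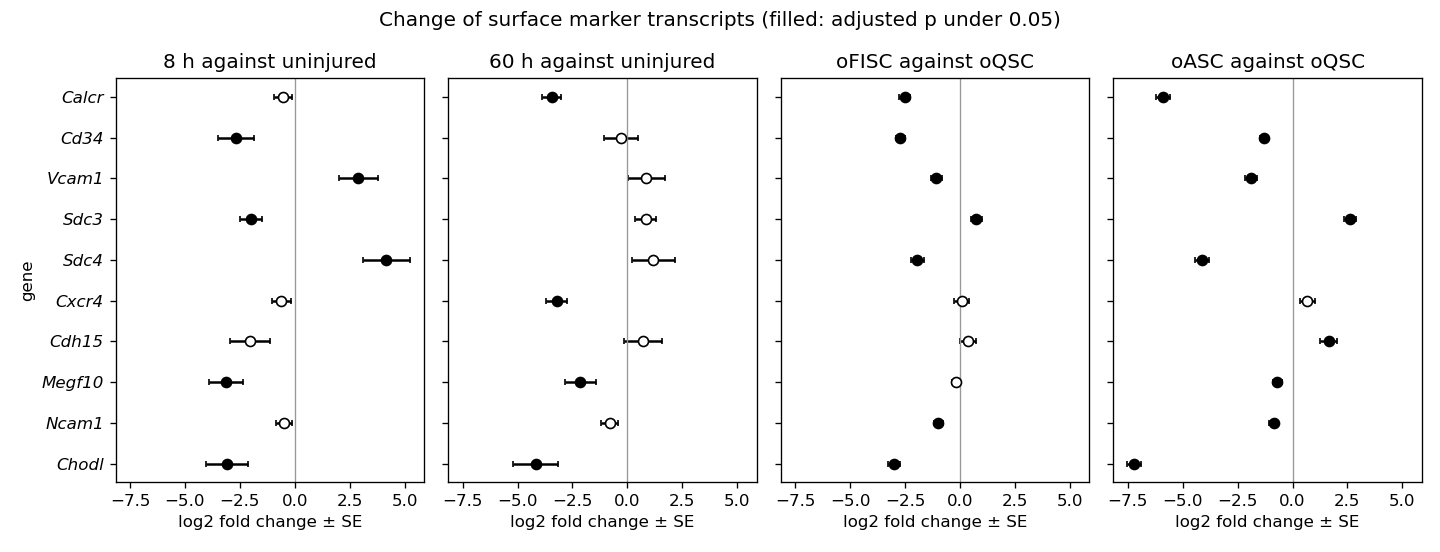
Log2 fold change (x axis, points with SE) of each gene (y axis) in 4 comparisons, filled where the adjusted p was under 0.05. Sdc4 and Vcam1 lie to the right at 8 h and to the left in oASC against oQSC, while Calcr and Chodl lie to the left at 60 h and in both comparisons of old cells.

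At 0.5 to 4 h the genes split the libraries inside each group. For Sdc4, libraries 1 and 2 of 0.5 h held 881 and 13179 CPM, those of 1 h 2492 and 11047 CPM, those of 2 h 12355 and 4548 CPM and those of 4 h 6433 and 14488 CPM. The library with more Sdc4 was library 2 at 0.5, 1 and 4 h and library 1 at 2 h, and it held 2.25 to 15 times as much as the other. In all 4 groups that library also held more Vcam1, and less Cd34, Chodl, Cdh15, Megf10, Ncam1, Sdc3 and Calcr.

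In the same order of times, Chodl was at 2319 and 568, 1418 and 530.0, 484 and 2397, and 1459 and 249 CPM, so that in each group 1 library stood above both uninjured libraries and the other below both. Cd34 was at 653 and 184, 409 and 147, 85.9 and 408 and 327 and 82.1 CPM and Vcam1 at 479.6 and 2819.9, 385 and 1087, 842 and 445 and 283 and 1108 CPM. The lower Cd34 library lay between both uninjured libraries at 0.5 and 1 h and below them at 2 and 4 h. The lower library of each group lay above both 8 h libraries for both Cd34 and Chodl.

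Cdh15 differed by a like ratio, at 318 and 80.9, 215 and 75.6, 52.7 and 299.8 and 211 and 39.2 CPM. Megf10 was at 265 and 90.4, 197 and 82.9, 85.1 and 232 and 219 and 61.8 CPM, below uninjured cells in all 8 libraries. The satellite cell factors split the same libraries. Pax7 was lower in the library with more Sdc4 in 4 of 4 groups, at 0.0701 to 0.260 times the other, and Myod1, which starts the myogenic programme, was higher in 4 of 4, at 11 to 24.5 times. Cxcr4 was higher in that library in 2 groups and lower in 2. Marker sums of other cells split as well. That of fibro-adipogenic cells and fibroblasts was 2119 and 1229, 1821 and 1188, 1095 and 2151 and 2005 and 1063 CPM at 0.5, 1, 2 and 4 h, and that of pericytes and smooth muscle 293 and 199.6, 373 and 158, 124 and 247 and 347 and 199 CPM, both lower in the library with more Sdc4 in 4 of 4 groups. Their part in the split was not tested. Dpt, a marker in the fibro-adipogenic sum, was among the genes most like Calcr (Pearson's r of 0.89 over the 30 libraries), so this sum need not measure such cells alone.

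With such spread, 3 calls were made at these times. Vcam1 at 0.5 h was 3.62 ± 0.93 (adjusted p = 0.0299); without library 2 of 0.5 h it was 1.86 (adjusted p = 0.238), and without uninjured library 1 or 2 the p was 0.169 and 0.148. Sdc4 was 3.68 ± 1.06 (adjusted p = 0.0472) at 2 h and 3.94 ± 1.07 (adjusted p = 0.0355) at 4 h. Without the library higher in Sdc4 the values were 2.76 at 2 h (without library 1, adjusted p = 0.222) and 3.26 at 4 h (without library 2, 0.156). Without uninjured library 1 or 2 they were also not called (adjusted p = 0.149 to 0.247). At 2 h the call of Sdc4 was lost with RLE size factors too (adjusted p = 0.0505).

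**Figure D3:**
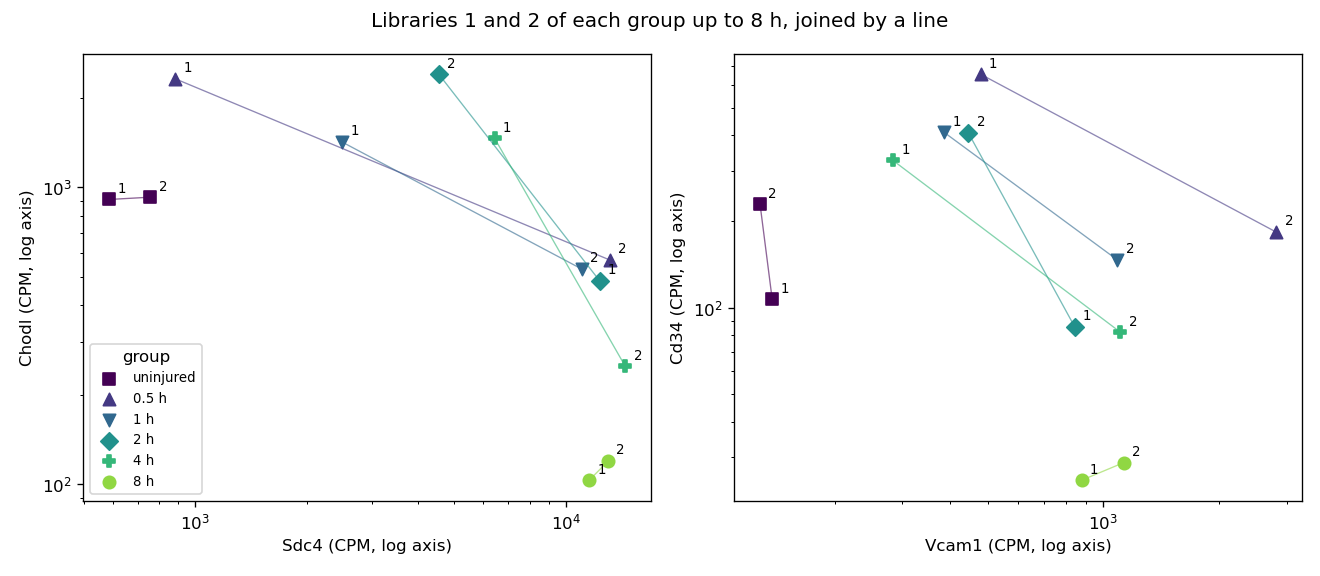
Libraries 1 and 2 of each group up to 8 h, joined by a line, with Chodl against Sdc4 and Cd34 against Vcam1 in CPM on log axes. In the groups of 0.5 to 4 h the lines run from upper left to lower right, and the 8 h libraries sit at the lower right, at 103 and 119 CPM of Chodl.

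The later times ask whether the surface genes return. Against 60 h, 3 of the 10 were called at 7 days (16.8% of all genes), all higher (7.89%). Calcr was at 89.4 and 73.1 CPM at 7 days (2.43 ± 0.49, adjusted p = 0.00156), Cxcr4 at 23.3 and 17.8 CPM (2.81 ± 0.46, adjusted p = 0.000286) and Chodl at 1112 and 918 CPM (4.32 ± 0.85, adjusted p = 0.00137). Each was called whichever of the 4 libraries was left out, and no 60 h library reached a 7 day one. Sdc3 was at 4.61 and 11.2 CPM, below 60 h, without a call (-2.28 ± 0.97, adjusted p = 0.114), and Sdc4 at 469 and 672 CPM.

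Against uninjured cells edgeR called 0 of the 10 at 7 days (11.2% of all genes), 0 at 14 days (12.8%) and 0 at 28 days (6.49%). Unadjusted p-values under 0.05 were found for 3, 2 and 2 genes, and DESeq2 called 2, 2 and 1. Of all 28823 genes tested DESeq2 called 5297, 5836 and 3981. These counts do not show that the levels had returned. Calcr was at 117 and 43.3 CPM at 14 and 48.9 and 97 CPM at 28 days, all under both uninjured libraries, with -1.17 ± 0.47 (adjusted p = 0.145) at 28 days. Megf10 was at 191 and 153, 144 and 289 and 127 and 189 CPM at 7, 14 and 28 days, also under both uninjured libraries each time (-1.66 ± 0.62, adjusted p = 0.115 at 28 days).

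Chodl lay at or above the uninjured level, with 1950.0 and 1120.4 CPM at 14 and 2063 and 2597 CPM at 28 days (1.35 ± 0.75, adjusted p = 0.306). Its 28 day libraries were, with library 2 of 2 h and library 1 of 0.5 h, the 4 highest of the 30. Cd34 was at 66.2 and 41.2 CPM at 7, 48.5 and 66.3 CPM at 14 and 108 and 145 CPM at 28 days, and the value at 7 days (-1.65 ± 0.67, adjusted p = 0.124) was not called. Cxcr4 reached 34.4 and 44.3 CPM at 28 days, the highest group for this gene. Vcam1 was at 249 and 242, 199 and 249.7 and 84.6 and 223 CPM and Sdc4 at 812 and 1249 CPM at 28 days.

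Within the regeneration table, edgeR called 0 of the 10 from 7 to 14 days (0.0531% of all genes; 0 with an unadjusted p under 0.05 and 0 by DESeq2). From 7 to 28 days it also called 0 (0.295%), and DESeq2 called 3. Of all 16954 genes tested DESeq2 called 605 from 7 to 14 and 1213 from 7 to 28 days. An unadjusted p under 0.05 was found for 4 of the 10 from 7 to 28 days. The 4 were Cd34 (1.37 ± 0.37, adjusted p = 0.165), Chodl (1.33 ± 0.42, adjusted p = 0.219), Cxcr4 (1.07 ± 0.39, adjusted p = 0.279) and Sdc4 (0.99 ± 0.37, adjusted p = 0.287), all higher at 28 days. The remaining genes were Cdh15 at 152 and 170.4, 297 and 193 and 90.6 and 93.1 CPM and Ncam1 at 442 and 414, 432 and 513 and 282 and 434 CPM. Sdc3 had 0 counts in library 1 of 14 days against 178 in library 2, where a count of 3 would be 0.240 CPM in library 1. That library was closer to a 7 day library than to its partner, and Myod1 was at 27.6 and 222 CPM in the 14 day libraries.

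In old cells Calcr, Chodl, Sdc4 and Vcam1 were highest in oQSC and lowest in oASC, and Sdc3 and Cdh15 were highest in oASC. Levels within the table of old cells are given with that table's own TMM scaling, because scaling all 30 libraries together moved those libraries by factors of 0.900 to 1.23. Of the 10 genes, 9 were called between oASC and oQSC (40.3% of all genes), 2 higher (19% of all genes) and 7 lower (21.3%). Between oFISC and oQSC 7 were called (41.9%), 1 higher (19.3% of all genes) and 6 lower (22.6%). The spread in this table was smaller than in the others, with a common dispersion of 0.0878 against 0.316 for the time course. Fitted with all 30 libraries, 3 of the 10 were called in each, and 17.3% (oASC) and 8.47% (oFISC) of all genes. Pax7 was low and Myod1 high in the oQSC libraries (values below), unlike in uninjured cells. Whether their labels are right was not tested, so each comparison with oQSC is one with the libraries labelled oQSC.

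Calcr was at 271 and 269 CPM in oQSC, 58.2 and 36 CPM in oFISC and 4.97 and 4.07 CPM in oASC. The change was -2.52 ± 0.27 (adjusted p = 0.000227) in oFISC and -5.90 ± 0.31 (adjusted p = 7.42e-06) in oASC, a 59.6-fold fall. Chodl was at 1591 and 1534, 231 and 157 and 11.2 and 10.1 CPM, with -3.01 ± 0.26 (adjusted p = 0.000116) and -7.20 ± 0.32 (adjusted p = 6.16e-06), a 147-fold fall and the steepest among the 10. The 3 groups did not overlap for either gene, and oFISC lay between the others.

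Sdc4 was at 17731 and 14268 CPM in oQSC, 4175 and 4122 CPM in oFISC (-1.95 ± 0.29, adjusted p = 0.00124) and 948 and 888 CPM in oASC (-4.12 ± 0.32, adjusted p = 3.37e-05). Vcam1 went the same way, at 2154 and 2491, 916 and 1276 (-1.08 ± 0.26, adjusted p = 0.0118) and 592 and 655 CPM (-1.90 ± 0.26, adjusted p = 0.000621). Without oQSC library 2 the fall of Vcam1 in oFISC had an adjusted p of 0.061. The other syndecan, Sdc3, rose, from 7.07 and 8.63 CPM to 57.7 and 38.5 CPM in oASC (2.61 ± 0.26, adjusted p = 0.000117). In oFISC it was at 13.9 and 12.4 CPM (0.74 ± 0.26, adjusted p = 0.0456), a call that was lost whichever library was left out (adjusted p 0.0582 to 0.212).

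Cd34 was lowest in oFISC, at 57.8 and 50.2 CPM against 356 and 349 CPM in oQSC (-2.71 ± 0.20, adjusted p = 9.89e-05), and at 142 and 142 CPM in oASC (-1.31 ± 0.19, adjusted p = 0.000834). Cdh15 rose in oASC, to 265 and 236 CPM from 53.7 and 107 CPM (1.64 ± 0.37, adjusted p = 0.00794; 0.0526 without oQSC library 1). Ncam1 was at 359 and 359 CPM in oQSC, 197 and 167 CPM in oFISC (-0.98 ± 0.20, adjusted p = 0.00532) and 196 and 198 CPM in oASC (-0.87 ± 0.20, adjusted p = 0.0081), and the call in oASC was lost without oASC library 1 (0.0975) or 2 (0.0889). Megf10 was at 55.6 and 61.6, 52 and 51.5 and 40.7 and 31.6 CPM, with -0.70 ± 0.20 (adjusted p = 0.0245) in oASC, lost without any 1 library (adjusted p 0.055 to 0.245). Cxcr4 was low throughout, at 4.95 and 5.98, 4.83 and 6.62 and 11.5 and 6.03 CPM, and was not called.

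Over all genes the median log2 fold change was 0.52 in oFISC against oQSC and -0.33 in oASC against oQSC, so that smaller changes depend on the scaling. RLE size factors moved the former median by 0.30, to 0.81, and the share of calls that were higher from 46% to 56.8%. The 10 genes had medians of -1.03 and -1.09. Sums of markers of other cells differed as well. The endothelial sum was 139 to 177 CPM in oQSC, 102 to 130.0 CPM in oFISC and 23.9 to 31.5 CPM in oASC, and that of fibro-adipogenic cells and fibroblasts 1477 to 2298, 827 to 1201 and 272 to 283 CPM. Between oQSC and oASC, 10 of 13 endothelial and 7 of 11 fibro-adipogenic markers fell and 0 rose, beside 21.3% and 19% of all genes. Their defining genes stood at 14.9 ± 0.605 CPM in oQSC and 1.80 ± 0.702 CPM in oASC for Pecam1, and at 3.95 ± 0.693 and 2.46 ± 0.0355 CPM for Pdgfra (SD, 2 libraries). Their part in the falls of Cd34 and Vcam1 was not tested. The muscle fibre sum was 156 to 164 CPM in oQSC, 802 and 71.7 CPM in oFISC libraries 1 and 2 and 755 to 809.8 CPM in oASC, with 2 of 12 markers risen and 1 fallen between oQSC and oASC, and its part in the rise of Cdh15 was not tested.

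Compared with uninjured cells, the cells labelled oQSC differed in 4 of the 10 genes (21.6% of all genes). Sdc4 was at 20362 and 16846 CPM on the scale of all libraries, 27.7-fold higher (4.79 ± 0.89, adjusted p = 0.000565), and Vcam1 at 2473 and 2941 CPM (4.35 ± 0.80, adjusted p = 0.000484). Megf10 was lower, at 63.8 and 72.7 CPM (-2.88 ± 0.65, adjusted p = 0.00275), and Cxcr4 also, at 5.69 and 7.06 CPM (-2.10 ± 0.45, adjusted p = 0.00183). All 4 calls held whichever library was left out. Beside them, Pax7 was at 84.5 and 72.7 CPM in oQSC and Myod1 at 1069.6 and 1536 CPM, against 1746 and 1555 CPM and 41.4 and 50.8 CPM in uninjured cells. High Sdc4, Vcam1 and Myod1 with low Pax7 and Megf10 was also the pattern of the 8 h libraries (55.1 and 35 CPM of Pax7, 3346 and 3199.6 CPM of Myod1). The library with more Sdc4 at 0.5, 1, 2 and 4 h had this pattern too. In that order these early libraries held 134, 147, 117 and 69.6 CPM of Pax7 and 1508, 1790, 1882 and 2165 CPM of Myod1. Calcr (311 and 317 CPM), Cd34 (409 and 413 CPM) and Chodl (1828 and 1811 CPM) of oQSC lay above the 8 h libraries and above these early ones. The endothelial and fibro-adipogenic sums were also higher in oQSC than in uninjured cells, and so was the leukocyte sum (139 to 171 against 9.07 to 10.7 CPM), while the muscle fibre sum was 156 to 164 against 90.4 to 168 CPM. Their part was not tested. The cause of this profile, a wrong label included, was not tested, and group, age and table cannot be told apart. The comparisons above and the response to injury below hold for these libraries as labelled.

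After injury, old cells were compared with younger ones, meaning those not labelled old. Against 60 h cells, oASC cells differed in 1 of the 10 genes (2.2% of all genes; 53.2% of those were higher, and 37.4% with RLE size factors). Cxcr4 was at 13.4 and 7.09 CPM in oASC and 2.42 and 3.45 CPM at 60 h (1.80 ± 0.45, adjusted p = 0.0353), a call that was lost whichever library was left out (adjusted p 0.0869 to 0.424) and with RLE size factors (0.0605). Calcr was at 5.79 and 4.78 CPM in oASC (-1.51 ± 0.47, adjusted p = 0.107) and Chodl at 13 and 11.9 CPM (-2.03 ± 0.77, adjusted p = 0.204), both under both 60 h libraries without a call. The interval of such differences is wide, and a missed threshold does not show equal levels.

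The response to injury itself, oASC against oQSC minus 60 h against uninjured, differed in 3 of the 10 genes (7.28% of all genes). Cxcr4 fell in younger cells and was not lower in oASC than in oQSC, a difference of 3.90 ± 0.63 (adjusted p = 0.000945) that held without any 1 of the 8 libraries. The starting levels of Cxcr4 differed, at 5.69 and 7.06 CPM in oQSC against 26.7 and 27.9 CPM in uninjured cells. Calcr fell more in old cells (-2.45 ± 0.66, adjusted p = 0.0271), a call lost without any 1 library (adjusted p 0.0618 to 0.127). Sdc4 was -5.31 ± 1.15 (adjusted p = 0.00679): it stood at 20362 and 16846 CPM in oQSC but 586 and 756 CPM in uninjured cells, and ended at 1105 and 1044 CPM in oASC and 1424 and 1649 CPM at 60 h. Without uninjured library 1, oASC library 1 or oASC library 2 its adjusted p was 0.0685, 0.0667 and 0.0665. The tables cannot be told apart from age here.

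**Figure D4:**
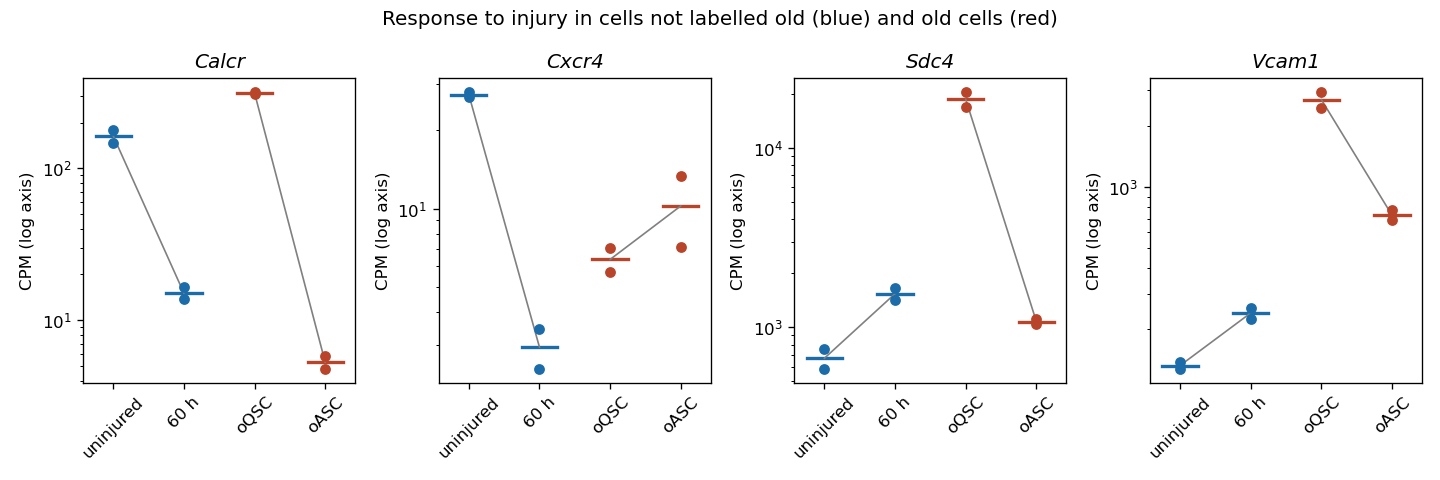
Levels in CPM (log axis) of Calcr, Cxcr4, Sdc4 and Vcam1 in uninjured and 60 h cells (blue) and in oQSC and oASC cells (red), with points for libraries, bars for means and lines joining the means. The Sdc4 lines slope in opposite directions, and Cxcr4 drops in the blue pair to 2.42 and 3.45 CPM but not in the red one.

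Of the 19 known ligands and counter-receptors of these proteins, 17 were tested in the time course. At 8 h 3 rose and 1 fell, and at 60 h 6 rose and 3 fell, while in oASC against oQSC 4 of 19 rose and 6 fell. For this and the lists below, 30.1% of all genes were called at 8 h (53.4% of those higher). At 60 h 28.3% were called (54.7% higher) and in oASC against oQSC 40.3% (47.1% higher). The counts of the lists were not tested against these shares. Itgb1, the beta chain of the integrin that binds Vcam1, rose at 8 h from 80.1 ± 9.70 to 491 ± 119 CPM (log2 fold change 2.59 ± 0.51), where levels here and below are means ± SD of 2 libraries. Collagen V is a ligand of the calcitonin receptor in the satellite cell niche, and its chain Col5a1 fell at 8 h (-1.47 ± 0.34) and at 60 h from 183 ± 48.6 to 28 ± 4.83 CPM (log2 fold change -2.72 ± 0.36). Col5a3 fell at 60 h (-1.89 ± 0.50) and rose in oASC (2.46 ± 0.27), and Col5a2 rose at 8 h (1.20 ± 0.35) and in oASC (1.80 ± 0.19). Fibronectin, Fn1, which binds syndecan 4, rose at 60 h from 10.7 ± 0.366 to 52 ± 9.96 CPM (log2 fold change 2.28 ± 0.60).

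Of 22 co-receptors and signalling partners, 8 rose and 4 fell at 8 h, 3 rose and 3 fell at 60 h, and 6 rose and 7 fell in oASC. Ezr, which links membrane proteins to actin, rose at 8 h from 1.98 ± 1.09 to 117 ± 5.59 CPM (log2 fold change 5.88 ± 0.93), and also at 60 h (5.17 ± 0.90) and in oASC (2.83 ± 0.25). Jup, plakoglobin, which binds cadherins, fell at 8 h (-2.73 ± 0.49) and 60 h (-2.09 ± 0.48). Notch1, a partner reported for Megf10, fell at 8 h from 759.9 ± 143 to 104 ± 3.50 CPM (log2 fold change -2.89 ± 0.34). Met, the Hgf receptor, rose at 60 h (2.89 ± 0.63) and in oASC (2.16 ± 0.23). Ackr3, the other receptor of Cxcl12, fell in oASC from 1539.9 ± 165 to 113 ± 24.3 CPM (log2 fold change -3.77 ± 0.27), and Fgfr1, which signals with syndecan 4, also fell there (-2.73 ± 0.24).

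Of 16 enzymes that build or trim heparan sulfate and polysialic acid, 1 rose and 2 fell at 8 h, among them Hs2st1 (-1.80 ± 0.35) and Hs6st2 (-2.25 ± 0.52), both sulfotransferases. At 60 h 1 rose and 4 fell, and in oASC 4 rose and 5 fell. St8sia2, which adds polysialic acid to Ncam1, rose at 60 h from 1.22 ± 1.26 to 69.5 ± 11.3 CPM (log2 fold change 5.89 ± 0.86) and in oASC from 1.19 ± 1.03 to 38 ± 1.65 CPM (log2 fold change 5.02 ± 0.55), while Ncam1 itself was at 264 and 258 CPM at 60 h. Both starting levels of St8sia2 were low, with an SD close to the mean, so the size of its rise is uncertain. Sulf1, which removes sulfate from heparan sulfate, fell at 60 h from 333 ± 6.97 to 67.1 ± 5.15 CPM (log2 fold change -2.32 ± 0.35) and in oASC (-2.89 ± 0.24).

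Among 21 relatives of the 10 genes, 20 of them tested in the time course, 6 rose and 1 fell at 8 h, 8 rose and 4 fell at 60 h, and 7 of 21 rose and 7 fell in oASC. N-cadherin, Cdh2, a cadherin like Cdh15, rose at 60 h from 2.05 ± 0.603 to 113 ± 10.1 CPM (log2 fold change 5.78 ± 0.52) and in oASC (4.73 ± 0.29), and Cdh4 (-4.98 ± 0.72 at 60 h, -4.66 ± 0.35 in oASC) and Cdh13 (-1.91 ± 0.40 and -3.80 ± 0.22) fell. Glypican 1, Gpc1, a heparan sulfate proteoglycan like the syndecans, rose at 60 h from 45.3 ± 12.3 to 356 ± 28.1 CPM (log2 fold change 2.97 ± 0.53). Podxl2, a sialomucin of the Cd34 family, fell at 8 h (log2 fold change -4.65 ± 0.81).

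Of 21 other surface proteins reported on satellite cells, 5 rose and 6 fell at 8 h, 4 rose and 5 fell at 60 h, and 3 rose and 12 fell in oASC. The receptor of the cytokine Tweak, Tnfrsf12a, rose at 8 h from 9.50 ± 0.0822 to 1471 ± 56.6 CPM (log2 fold change 7.25 ± 1.17), the tetraspanin Cd9 from 57.1 ± 11.9 to 979.9 ± 97.4 CPM (log2 fold change 4.07 ± 0.59) and the tetraspanin Cd63 by 2.67 ± 0.50, while Notch3 fell from 1713 ± 124 to 15.1 ± 3.36 CPM (log2 fold change -6.85 ± 1.10). At 60 h Tenm4 fell from 423 ± 6.58 to 37.7 ± 3.39 CPM (log2 fold change -3.50 ± 0.65), Ptprz1 by 5.38 ± 0.92 on the log2 scale and Igf1r to 26.7 ± 4.11 CPM (-2.37 ± 0.41), and Lrp4 rose (2.91 ± 0.37). In oASC the falls included Musk, the receptor kinase of the neuromuscular junction from 2879 ± 639 to 83.1 ± 0.161 CPM (log2 fold change -5.12 ± 0.30), and Cd200 from 1852 ± 327 to 90.5 ± 10.4 CPM (log2 fold change -4.35 ± 0.26). Of 10 genes of identity and myogenic state, 1 rose and 3 fell at 8 h, 1 rose and 4 fell at 60 h, and 2 rose and 7 fell in oASC, Pax7 among them at 8 h (-5.23 ± 1.44) and in oASC (-2.93 ± 0.21). The median log2 fold changes of the lists were 2.26, 0.72, 0.07, 1.27 and 0.94 at 8 h for ligands, partners, enzymes, relatives and other surface proteins, beside 0 for all genes. That of identity and myogenic state was -0.84. Marker lists of cell types had medians of 3.16 (leukocyte), 2.89 (muscle fibre), 1.94 (fibro-adipogenic), 1.61 (satellite cell), 1.60 (endothelial), 0.29 (Schwann cell) and -0.64 (pericyte), so high medians were not particular to the surface lists.

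For each gene, the 3 genes with the most similar profile over the 30 libraries were found by Pearson's r of log2 CPM among 9824 genes with a mean of at least 5 CPM. The libraries share depth, preparation and groups, so r is a description. Chodl had the closest, Fxyd1 (0.97), Abca8a (0.97) and Cib2 (0.96). Sdc4 went with Errfi1 (0.96), Gfpt2 (0.94) and Tgif1 (0.94), Megf10 with Cux1 (0.95), Plxna2 (0.93) and Gli2 (0.93), and Vcam1 with Asb5 (0.93), Clic4 (0.93) and Plat (0.92). Calcr went with Pitpnc1 (0.92), Vtn (0.91) and Dpt (0.89), and Cd34 with Atp6v0e2 (0.89), Dtd1 (0.89) and Ak3 (0.85). The nearest genes were more distant for Sdc3 (Tmem198b, 0.88), Cdh15 (Lrsam1, 0.86), Ncam1 (Fxyd6, 0.81) and Cxcr4 (Gigyf1, 0.79).

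The order of the 15 groups by mean level, on the scale of all libraries, differed from gene to gene. At the high end, both libraries of oQSC for Calcr and Sdc4, of uninjured cells for Megf10, of 28 days for Cxcr4 and of oASC for Sdc3 lay above every other library. Chodl was highest at 28 days and Vcam1 in oQSC by mean, but library 1 of 0.5 h and library 2 of 2 h lay inside the 28 day range of Chodl, and library 2 of 0.5 h inside the oQSC range of Vcam1. For Cd34 (0.5 h first, then oQSC), Cdh15 (oASC, then 14 days) and Ncam1 (2 h, then 32 h) the first groups overlapped. At the low end, both libraries of 60 h for Cxcr4, of 8 h for Cd34 and of oASC for Calcr, Ncam1 and Chodl lay below every other library. The lowest groups of Megf10 (oASC, with library 1 of 16 h inside its range), Cdh15 (8 h, with library 2 of 4 h), Sdc4 (7 days, beside uninjured and 14 days), Vcam1 (uninjured, beside 28 days) and Sdc3 (8 h, beside 14 days) overlapped with others.

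The 10 genes lie on 9 chromosomes of build GRCm38 in GENCODE M21. Receptors are at chr6:3685680-3764714 (Calcr, -), chr1:128588199-128592293 (Cxcr4, -) and chr18:57133090-57297467 (Megf10, +), and syndecans at chr4:130792537-130826319 (Sdc3, +) and chr2:164424247-164443887 (Sdc4, -). Adhesion genes are at chr3:116109949-116129688 (Vcam1, -), chr9:49502136-49798925 (Ncam1, -) and chr8:122847966-122867397 (Cdh15, +), and the glycoprotein genes at chr1:194938819-194961279 (Cd34, +) and chr16:78930948-78951733 (Chodl, +). All are protein coding, and counts were summed over the gene, so isoforms were not told apart.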

How the data were processed

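Gene counts of 30 libraries were analysed as deposited by the authors, as whole numbers in 3 tables (time course to 60 h, 18 libraries; regeneration, 6; old cells, 6). Per the submitters' processing notes, Trimmomatic 0.36, HISAT2 2.1.0, SAMtools 1.3, StringTie 1.3.3 and the mm10 genome were used. Per the labels' protocols, polyadenylated RNA was amplified with SMART-Seq v4. Molecular identifiers are not mentioned there. For the counting program, its strand setting and the annotation release, the sources used here name nothing.

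Counts were fitted with edgeR 4.0.16 (R 4.3.3, limma 3.58.1), after filterByExpr (minimum count 10, minimum total 15) and TMM, with the quasi-likelihood F test and Benjamini-Hochberg adjustment over all genes tested. Each table was fitted alone (22479 genes in the time course, 16954 in regeneration, 30099 in old cells), and comparisons between tables came from 1 fit of all 30 libraries over the identifiers they share (28823 genes). Standard errors are the absolute log2 fold change over the square root of F. The 10 genes and all lists were chosen with earlier results of these data known. Of each list, up to 4 called genes with the smallest adjusted p were open to naming. Some with almost no counts in a group were passed over, but St8sia2, with few counts in uninjured cells and oQSC, was not. The genes printed are a selection made after their values were seen. The scale of levels in old cells was also chosen then. As alternatives, DESeq2 1.42.0, RLE size factors, no filter, the replicate number as a block, only the groups compared, gene models over 1% of a library left out, the 0.5 to 4 h libraries left out, all 30 libraries in each fit, totals without TMM, and each library left out in turn were run. The tests were tested on simulated data.

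Replicate numbers showed no consistent pairing of the libraries. Deviations of the libraries inside their groups correlated across groups with r from -0.69 to 0.66 in the time course, 0.02 to 0.06 in regeneration and 0.02 to 0.11 in old cells. In the time course the median was -0.02, and 8 of 36 pairs of groups were over 0.1. Whether some groups were prepared in pairs was not tested.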

Additional observations from a re-analysis of the deposited data

Results flagged for a closer look

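The response to injury of 3 of the 10 genes, and of 7.28% of all genes, differed between the libraries labelled old and the younger ones. The test was of the difference itself (oASC against oQSC minus 60 h against uninjured, edgeR's quasi-likelihood test over all genes). The difference was -2.45 ± 0.66 (adjusted p = 0.0271) for Calcr, -5.31 ± 1.15 (adjusted p = 0.00679) for Sdc4 and 3.90 ± 0.63 (adjusted p = 0.000945) for Cxcr4, on the log2 scale with SE. For Calcr both responses were falls. For Sdc4 the mean of both 60 h libraries was above that of uninjured cells and that of oASC below oQSC. As given above, the call of Calcr was lost whichever library was left out, and that of Sdc4 in some of these fits. The oQSC libraries held low Pax7 and high Myod1, and whether their labels are right was not tested. The old groups come from another table than the younger ones, and table and age cannot be told apart.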

How the results depend on the processing

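No alternative turned the direction of any of the 45 changes called for the 10 genes. DESeq2 kept all 45, RLE size factors 43, no filter on low counts 43, fits of only the groups compared 43, and leaving out dominant gene models 36 of 38 (Sdc4 itself is among those models). The fit of all 30 libraries kept 23 of 34 and the fit without the 0.5 to 4 h libraries 15 of 15. Leaving out a library kept 121 of 192. DESeq2 called 2 of the 10 genes at 0.5 h, 3 at 1, 2 and 4 h and 5 at 16 h against uninjured, 1 for 16 against 8 h, 2 for 60 against 32 h, 3 for 28 against 7 days, 2, 2 and 1 for 7, 14 and 28 days against uninjured, 3 for oASC against 60 h, 5 for the difference between responses and 8 for any change. Over all genes it called 4810, 4752, 4588 and 5145 at 0.5, 1, 2 and 4 h, and 10747 for any change. It called 2495 for 60 against 32 h, 1928 for oASC against 60 h and 4161 for the difference. Without a filter the count of the 10 was 2, 3, 2 and 3 at 0.5, 1, 2 and 4 h, 4 at 16 h, 1 for 16 against 8 h, 2 for 60 against 32 h, 2, 1 and 2 at 7, 14 and 28 days, 6 for 7 days against 60 h, 2 for oASC against 60 h, 5 for the difference and 8 for any change. Over all genes it was then 88 for 16 against 8 h, 1275 for 60 against 32 h, 1037 for oASC against 60 h and 8777 for any change. With only the groups compared the count of the 10 was 0 at 0.5 and 2 h, 10 at 8 h, 7 at 16 h, 4 at 32 h, 9 at 60 h, 3 for 16 against 8 h, 2 for 60 against 32 h, 5 and 3 at 7 and 28 days, 8 for 7 days against 60 h and for oQSC against uninjured, and 7 for oASC against 60 h and for the difference. Over all genes it was then 0, 104, 11326, 8063 and 10317 at 0.5, 2, 8, 16 and 60 h. It was 1102 for 16 against 8 h, 6028 at 7 days and 8326 for 7 days against 60 h. For oQSC against uninjured it was 10846, for oASC against 60 h 7601 and for the difference 8003. Of the 10, RLE size factors gave 0 at 2 h and 0 for oASC against 60 h, and leaving out dominant gene models 0 at 2 and 4 h and 0 for oASC against 60 h. The fit of all 30 libraries gave 2 at 0.5, 1 and 4 h, 2 for 60 against 32 h, and 3 for oFISC and 3 for oASC against oQSC. Without the 0.5 to 4 h libraries the count of the 10 was 7, 4 and 7 at 16, 32 and 60 h against uninjured (38.8%, 37% and 44.4% of all genes). It was 4 for 16 against 8 h (5.82%), 2 for 32 against 16 h (3.45%) and 4 for 60 against 32 h (12.7%).

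With each library left out in turn, 0 to 2 were called at 0.5 h, 0 to 1 at 1 and 2 h, 0 to 2 at 4 h, 0 to 1 at 8 h, 1 to 2 at 16 and 32 h, 2 to 3 at 60 h, 0 to 1 for 60 against 32 h, 1 to 7 for any change, 5 to 6 for oFISC and 7 to 8 for oASC against oQSC, 0 to 1 at 14 days, 0 to 0 for oASC against 60 h and 1 to 2 for the difference. For 7 days against 60 h it was 3 each time and for oQSC against uninjured 4.

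The replicate number shared by groups showed no consistent pairing of the libraries. With it as a replicate block, 41 of the 45 calls were kept, 0 genes were called at 2 h and 0 for oASC against 60 h, and the calls of Megf10 at 60 h (adjusted p = 0.058) and Sdc3 in oFISC (0.0645) were lost.

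Counts over all genes moved by over 1.5 times in 15 of 23 comparisons with DESeq2, 7 without a filter and 16 of 22 with only the groups compared. With a library left out they moved in 86 checks and stayed within that in 24. At 8 h 6756 genes were called and 11326 with only the groups compared, at 60 h 6354 and 10317, at 0.5 h 2315 and 0 (DESeq2 4810), and for oASC against oQSC 12137 and, with all 30 libraries, 4972. RLE size factors moved the median of all genes by over 0.1 at 2, 4, 16 and 32 h, in oFISC against oQSC, in oQSC against uninjured and in oASC against 60 h, by up to 0.30. With totals in place of TMM, 42 of 60 group levels of the 10 genes moved by more than 1 SD of the 2 libraries. The least abundant of the 10 had 57 to 798 counts a library (Cxcr4) and 63 to 3323 (Sdc3, except the library with 0), and the 2 libraries a group limit the precision.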
